A study of Mus musculus with 18 samples.

Results

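Splenic CD4+ T cells (T4) were compared with 8 other immune populations sorted from mice that had all received interferon gamma (IFNg). They were taken by title and gate, CD4+ TCRB+, and made up 2 of the 18 arrays analysed. Every sample came from male C57BL/6 (B6) mice aged 6 weeks, 2 h after 10000 U of IFNg under the skin, and was sorted by FACS into TriZol. The arrays were of the Affymetrix type Mouse Gene 1.0 ST and measure transcripts by probe brightness. The other populations, with 2 arrays each, were CD8+ TCRB+ T cells (T8), CD25+ CD4+ TCRB+ cells (Treg), TCRgd+ TCRB- cells (Tgd), NK1.1+ TCRB+ cells (NKT), NK1.1+ TCRB- cells (NK), CD11c+ MHCII+ Flt3+ dendritic cells (DC), Ly6G+ granulocytes (GN), and macrophages gated on ICAM2 and the antigen encoded by Adgre1 (MF). MF were peritoneal, so tissue and cell type cannot be told apart for them. The gate of T4 did not exclude CD25+ cells. Untreated mice, other times and the remaining populations of the 11 that the series text mentions were not analysed here, so the values are levels in treated animals and not responses to IFNg.

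CD4 T cells carry an alpha beta T cell receptor that reads peptides on MHC class II, with CD4 as the coreceptor. Most of them in a young spleen are naive cells that recirculate between blood and lymphoid organs, and on activation they help other cells through CD40 ligand and cytokines. IFNg binds the receptor chains Ifngr1 and Ifngr2, which signal through Jak1 and Jak2 and induce Irf1, the GBP and IRG GTPases that guard against intracellular pathogens, and genes of antigen presentation.

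T4 was set against the mean of the 8 other population means, so that each population weighed the same. A second contrast used the mean of the 5 other lymphoid populations alone (T8, Treg, Tgd, NKT and NK), since the first holds 3 myeloid ones. All levels are log2 intensities and all differences are log2 differences, T4 minus the others, with the standard error of the fit. To pass, a gene needed a 2-fold difference or more and, over the 19752 genes tested, an adjusted p under 0.05. Labels did not say whether the arrays of a population came from separate mice. The p-values then reflect how far arrays of a population lay apart, a spread that may be technical.

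The 2 T4 arrays had a Pearson correlation of 0.9951 across genes, which are not independent replicates. They were at least 2-fold apart for 40 genes, 0.203% of all, against 13 to 143 genes in the other populations. Of these 40 genes, 24 were higher on replicate 3 and 16 on replicate 2. Immediate early genes were among the 24: Fos, a subunit of the AP-1 transcription factor, was 6.91 on replicate 2 and 9.40 on replicate 3. Dusp1, a phosphatase of MAP kinases, was 9.21 on replicate 2 and 11.47 on replicate 3. Lyz2, the lysozyme of macrophages and neutrophils, went the other way, with 9.93 on replicate 2 and 7.53 on replicate 3. The plot of the T4 arrays against each other shows these genes off the diagonal.

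**Figure D1:**
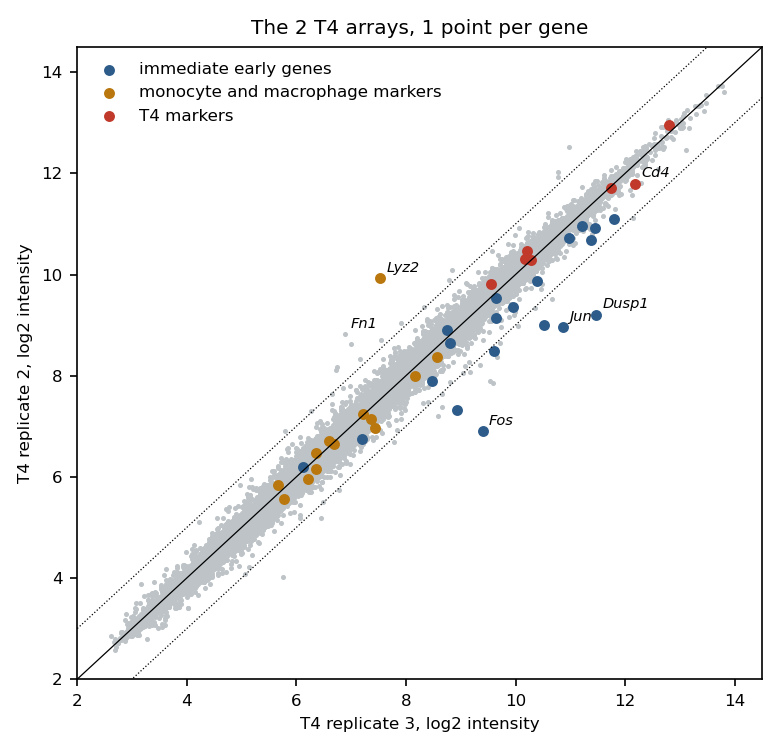
Log2 intensity of each gene on T4 replicate 2 (vertical) and T4 replicate 3 (horizontal). The solid line marks equal values and the dotted lines a 2-fold difference. Of the 20 immediate early genes, 6 lie under the lower line, among them Fos (6.91 and 9.40). Lyz2 (9.93 and 7.53) lies above the upper line, and the T4 markers lie near the diagonal.

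The gate was borne out by its own genes. Cd4, the coreceptor itself, was 11.80 and 12.18 on the T4 arrays, against a lowest of 6.34 (MF), a median of 6.98 and a highest of 11.74 (Treg) on the 16 other arrays. Both T4 arrays lay above all others, though by little over Treg, and Cd4 was also bright in NKT (mean 10.74) and DC (10.62). The difference was 3.66 ± 0.15 from the 8 others (adjusted p = 9.55e-12) and 0.28 ± 0.19 from Treg (adjusted p = 0.642). Cd8a, a chain of the CD8 coreceptor, was 6.89 and 6.81 in T4, near the lowest of the other arrays (6.66, MF) and far from the highest (12.28, T8). Klrb1c, the gene of the NK1.1 antigen, was 6.58 and 6.64 in T4, against a highest of 12.58 in NK.

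Igfbp4, which encodes a secreted binding protein of insulin-like growth factors, was 11.70 and 11.75 in T4, against 6.89 (DC), 8.42 and 10.64 (T8) as the lowest, median and highest of the 16 other arrays. The groups did not overlap, and the difference from the 8 others was 3.26 ± 0.13 (adjusted p = 1.42e-11). Dapl1, an early marker of epithelial differentiation that is also used as a marker of naive T cells, was 12.95 and 12.81 in T4, against 5.77 (MF), 7.78 and 13.06 (T8). Its difference was the largest of the genes higher than in the 8 others, 4.27 ± 0.17 (adjusted p = 9.65e-12). The T8 arrays lay at the same level: T4 minus T8 was -0.12 ± 0.23 (adjusted p = 0.946). Dapl1 thus marked T4 and T8 against the rest and did not separate them, while Cd4 and Igfbp4 did.

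**Figure D2:**
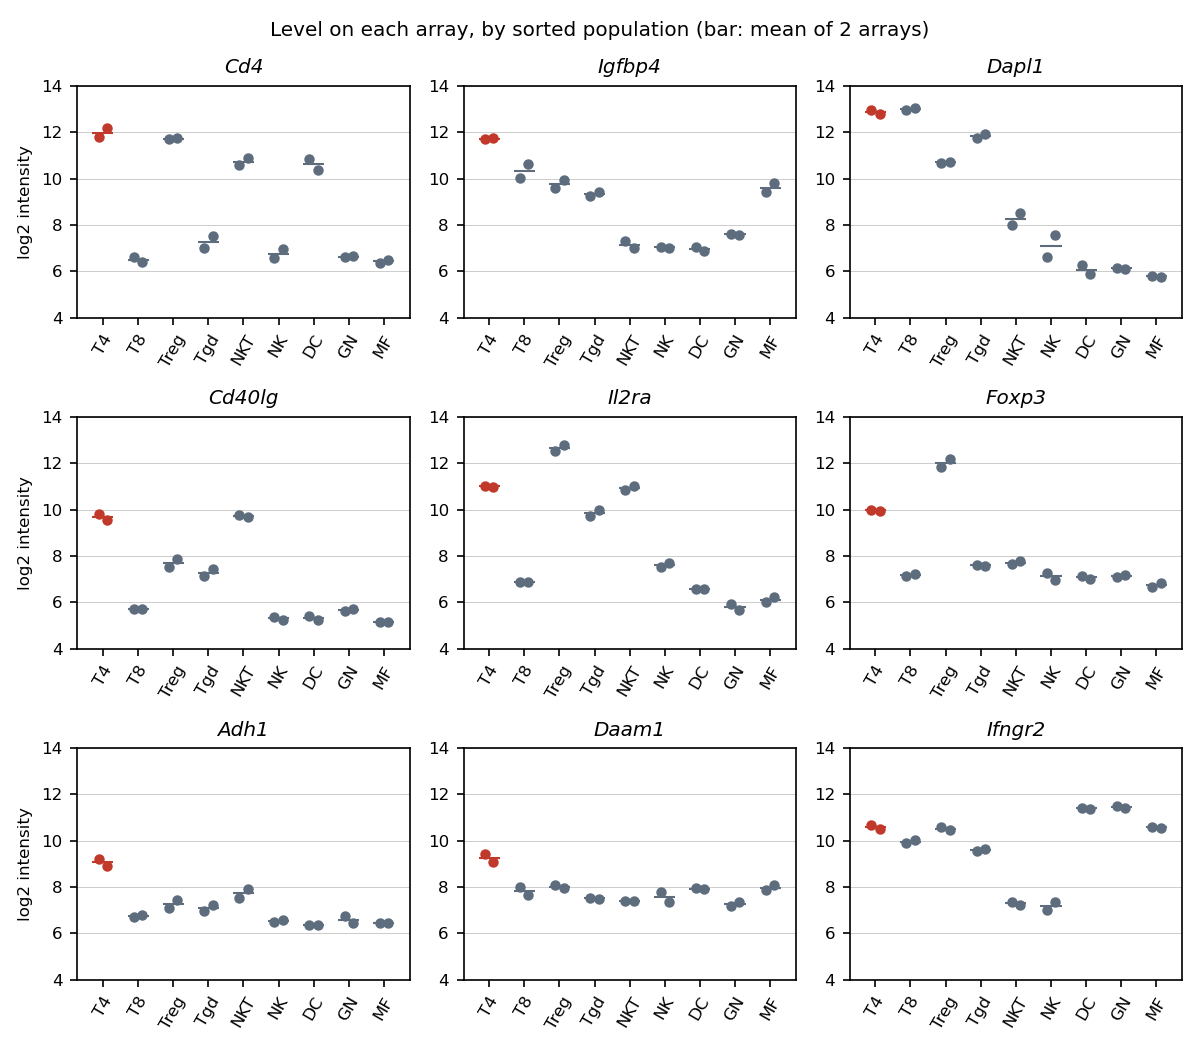
Log2 intensity of 9 genes on each of the 18 arrays, with 2 points per population and a bar at their mean; T4 is in red at the left. Igfbp4, Adh1 and Daam1 are highest in T4, Dapl1 is as high in T8, and Il2ra and Foxp3 are highest in Treg with T4 next.

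Against the 8 others, 263 genes were higher in T4 (1.33% of all tested) and 468 were lower (2.37%), while the median difference over all genes was -0.03. Against the 5 other lymphoid populations the counts were 110 higher (0.557%) and 152 lower (0.770%). The single populations ranked by distance. Against Treg, 70 genes were higher in T4 (0.354%) and 103 lower (0.521%). Against T8, 106 were higher (0.537%) and 84 lower (0.425%). Against Tgd there were 120 higher (0.608%) and 237 lower (1.20%). Against NKT there were 277 higher (1.40%) and 308 lower (1.56%), and against NK 502 higher (2.54%) and 592 lower (3.00%). The myeloid populations gave the highest counts. Against DC, 830 genes were higher (4.20%) and 1305 lower (6.61%), and against MF 1021 were higher (5.17%) and 1665 lower (8.43%). Against GN, 2684 were higher (13.6%) and 1538 lower (7.79%). These contrasts share the T4 arrays.

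**Figure D3:**
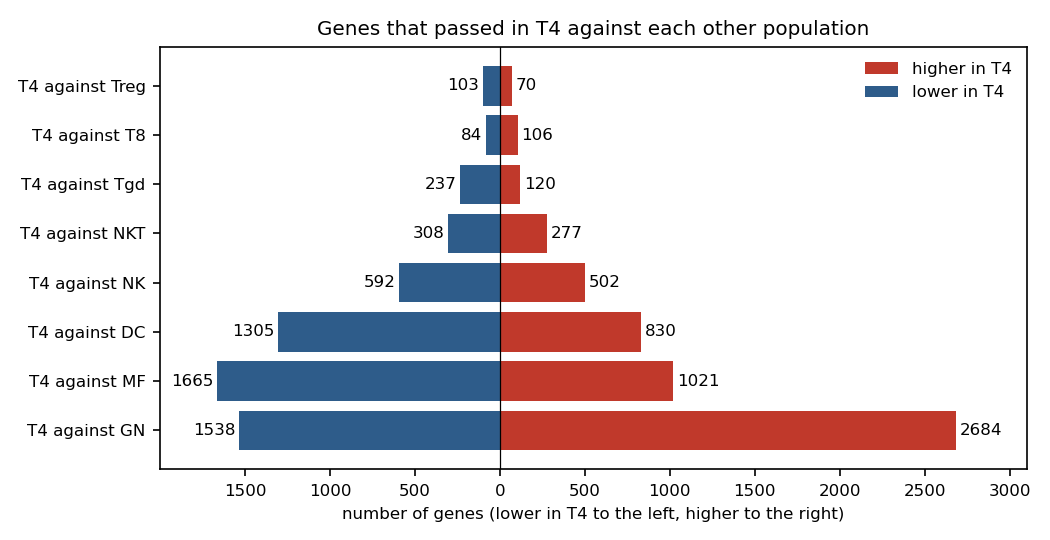
Number of genes that passed as higher in T4 (red, right) or lower in T4 (blue, left) against each other population. The counts grow from Treg (70 and 103) and T8 (106 and 84) to MF (1021 and 1665) and GN (2684 and 1538).

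Few genes set T4 apart from every other population. Both T4 arrays lay above all 16 others for 52 of the 263 higher genes, beside 215 of all 19752 genes (1.09%). They lay below all 16 others for 35 of the 468 lower genes, beside 163 of all genes (0.825%). When each of the 8 pairwise contrasts had to pass, 5 genes were higher than in all 8 populations (0.0253%), and none was lower in all 8 (0.00%; at an unadjusted p under 0.05 in all 8 contrasts by limma, 49 genes were higher and 14 lower). The 5 were Igfbp4, Adh1, Daam1, Cyp2s1 and Amigo2.

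Adh1, an alcohol dehydrogenase that also oxidises retinol, was 9.19 and 8.93 in T4, against 6.33 (DC), 6.72 and 7.91 (NKT) on the other arrays. T4 exceeded the nearest population, NKT, by 1.34 and the 8 others by 2.22 ± 0.11 (adjusted p = 1.47e-10). Daam1, a formin that links Wnt signalling to the actin cytoskeleton, was 9.42 and 9.08 in T4, against 7.16 (GN), 7.72 and 8.08 (Treg). Its smallest pairwise difference was 1.24 (Treg) and its difference from the 8 others 1.57 ± 0.12 (adjusted p = 2.25e-08). The means of Daam1 in the other 8 populations ran between 7.26 in GN and 8.02 in Treg.

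Cyp2s1, a cytochrome P450 enzyme, was 8.66 and 9.09 in T4, against 6.27 (NK), 7.01 and 7.98 (T8). Amigo2, a leucine-rich repeat adhesion protein, was 9.04 and 8.73 in T4, against 5.88 (DC), 6.96 and 7.91 (MF). Neither overlapped with the other arrays, and their smallest pairwise differences were 1.18 and 1.07, both close to the 2-fold limit. Igfbp4 had the widest margin of the 5, with a smallest difference of 1.40, to T8. The number of such genes was 8 without T4 replicate 3, when Cyp2s1 no longer passed, and 5 without T4 replicate 2, when Amigo2 no longer passed. Igfbp4, Adh1 and Daam1 passed with any single array left out.

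The sequence in front of these 3 genes is shown because they are the ones above all 8 populations whichever array was left out. Each line gives the 250 bases before the transcription start from RefSeq, GRCm38.p6, all on the plus strand: chr11:99040994-99041243 for Igfbp4, chr3:138277335-138277584 for Adh1 and chr12:71830818-71831067 for the first of the 2 starts of Daam1. Capitals mark a match to the TCF/LEF motif CTTTGA on either strand.
Igfbp4: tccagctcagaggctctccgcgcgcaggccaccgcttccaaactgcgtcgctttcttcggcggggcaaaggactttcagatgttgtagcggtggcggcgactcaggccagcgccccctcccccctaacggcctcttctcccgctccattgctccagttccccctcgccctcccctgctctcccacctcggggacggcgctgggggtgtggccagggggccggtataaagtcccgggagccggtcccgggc
Adh1: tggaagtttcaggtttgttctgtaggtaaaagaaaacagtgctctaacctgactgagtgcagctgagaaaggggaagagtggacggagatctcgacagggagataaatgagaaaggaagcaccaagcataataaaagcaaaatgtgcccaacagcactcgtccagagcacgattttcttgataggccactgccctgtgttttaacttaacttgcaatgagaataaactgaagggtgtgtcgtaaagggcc
Daam1: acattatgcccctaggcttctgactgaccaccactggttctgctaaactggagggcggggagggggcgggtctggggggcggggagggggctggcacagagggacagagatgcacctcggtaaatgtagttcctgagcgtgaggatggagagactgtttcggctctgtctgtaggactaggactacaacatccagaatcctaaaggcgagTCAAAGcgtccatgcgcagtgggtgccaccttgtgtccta
TCF1 and LEF1, which bind such motifs, are factors of naive T cells. The motif occurred once, in the window of Daam1, on the minus strand 40 bases before the start, and 13.83% of all 32851 windows held it. The RUNX motif TGTGGT matched neither strand of these 3 windows, against 14.05% of all windows. These are matches of letters only.

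Most genes of the T cell receptor apparatus were higher than in the 8 others. Of 18 measured genes of the CD3 complex and T cell receptor signalling, 17 were higher (1.33% of all genes) and none lower, with a median difference of 1.93 against -0.03 over all genes. Cd3e, a chain of the CD3 complex, was 13.06 and 12.78 in T4, against a lowest of 7.39 (MF) and a median of 10.79, a difference of 2.60 ± 0.12 (adjusted p = 8.14e-11). It overlapped with Tgd, whose mean was 12.90, and the other T cells carry the same receptor complex. Lat, the adaptor that the kinase Zap70 phosphorylates, was 12.27 and 12.17, just above all other arrays, of which the highest was 12.14 (Treg). Trat1, an adaptor bound to the receptor complex, was 10.32 and 10.17 in T4, against 4.15 (MF), 6.87 and 9.94 (Treg), a difference of 3.24 ± 0.10 (adjusted p = 1.12e-12). The only member that did not pass was Lcp2 (SLP-76), an adaptor also used by myeloid cells, with -0.15 ± 0.08.

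Against the 5 other lymphoid populations only Themis and Cd5 of the 18 passed, both higher (0.557% of all genes), and the median was 0.45 against -0.02 over all genes. Themis, which tunes receptor signalling during positive selection, was 11.44 and 11.37 in T4 and differed by 1.41 ± 0.12 (adjusted p = 2.88e-07). Its means were 11.65 in T8, 11.47 in Tgd, 10.75 in NKT, 9.92 in Treg and 6.17 in NK. The T4 values lay below the means of T8 and Tgd, and the low values of the lymphoid mean were those of NK and Treg. Cd5, an inhibitory partner of the receptor, differed by 1.43 ± 0.11 (adjusted p = 9.4e-08).

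Of 13 measured genes of naive and recirculating T cells, 11 were higher against the 8 others (1.33% of all genes) and none lower, with a median of 1.89 against -0.03 over all genes. Against the 5 lymphoid populations 5 were higher (0.557% of all genes), with a median of 0.87 against -0.02. Ccr7, the receptor that guides cells into lymph nodes and the splenic white pulp, was 12.13 and 12.31 in T4, against 6.82 (MF), 9.43 and 12.15 (T8), a difference of 2.71 ± 0.10 (adjusted p = 5.89e-12). T8 reached the level of T4. Il7r, the receptor of the survival cytokine IL-7, differed by 2.58 ± 0.12 from the 8 others and by 0.64 ± 0.12 from the lymphoid ones, where it missed the 2-fold limit. Lef1, a partner of beta-catenin, differed by 2.57 ± 0.10 from the 8 others, and S1pr1, the receptor that lets cells leave lymphoid tissue, by 2.13 ± 0.10. None of the 13 genes passed against T8 or against Treg, in either direction. That is near the shares of all genes, 0.537% higher and 0.425% lower against T8, and 0.354% and 0.521% against Treg.

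All 8 GIMAP genes, GTPases of lymphocyte survival, were higher than in the 8 others (1.33% of all genes), with differences of 1.01 to 2.51. None passed against the 5 lymphoid populations (0.557% of all genes higher and 0.770% lower), where the 8 ran between -0.44 and 0.23. Gimap3 was 12.05 and 11.90 in T4, against 4.77 (MF), 11.59 and 12.21 (Treg). The low end was myeloid, and the T4 arrays overlapped with those of other lymphocytes. Gimap7 and Gimap8 passed narrowly, with 1.23 and 1.01, and neither passed without T4 replicate 2 (0.88 and 0.97).

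Helper function was represented by Cd40lg, the ligand through which T cells activate B cells and dendritic cells. It was 9.82 and 9.56 in T4, against 5.13 (MF), 5.71 and 9.76 (NKT). The T4 arrays overlapped only with NKT, whose mean was 9.73, and stood far above Treg (7.71), Tgd (7.28) and T8 (5.73). The difference was 3.21 ± 0.10 from the 8 others and 2.54 ± 0.10 from the lymphoid ones (adjusted p = 1.12e-12 and 5.66e-11). Zbtb7b (ThPOK), the factor that fixes the CD4 lineage, was 10.47 and 10.21 in T4, against 6.62 (T8), 9.49 and 10.82 (GN). It was 3.68 ± 0.13 higher than in T8, and 1.10 ± 0.10 above the 8 others. That second value was 0.97, under the limit, without T4 replicate 2.

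Among 20 costimulatory and checkpoint genes, 12 were higher than in the 8 others and 1 lower (1.33% and 2.37% of all genes), with a median of 1.16. Cd28, the main costimulatory receptor, was 11.47 and 11.42 in T4, against 4.98 (DC), 10.11 and 11.62 (NKT), a difference of 2.54 ± 0.21 (adjusted p = 8.05e-08). Slamf1 differed by 2.24 ± 0.14, and Ctla4, which competes with Cd28 for its ligands, by 2.14 ± 0.28. Cd160, a receptor of NK cells and cytotoxic T cells, was the gene lower in T4, with a difference of -1.28 ± 0.12. Against the lymphoid populations, Cd40lg, Ctla4, Btla, Tnfsf8 and Slamf1 were higher and Cd160 lower (0.557% and 0.770% of all genes). The Ctla4 call against the lymphoid populations (1.59 ± 0.29) was lost without T4 replicate 3 (1.27).

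Of 17 cytokine receptor genes, 6 were higher than in the 8 others and 2 lower (1.33% and 2.37% of all genes). Il6ra and Il6st, the chains of the IL-6 receptor, were also higher against the lymphoid populations, by 1.97 ± 0.12 and 1.27 ± 0.11. Il6ra was 11.15 and 11.41 in T4, against 7.30 (NK), 10.51 and 11.28 (Treg), and its means in NK (7.54) and NKT (7.89) were far below those in Treg (11.21), T8 (10.75) and Tgd (9.14). Il2rb, a chain shared by the IL-2 and IL-15 receptors, was lower than in the other lymphocytes, with a difference of -1.54 ± 0.17 (adjusted p = 6.85e-06), and Il12rb2, a chain of the IL-12 receptor, by -1.81 ± 0.15. Both were high in NK, where Il2rb averaged 12.96.

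Of 16 effector and memory genes, none was higher and 4 were lower than in the 8 others (2.37% of all genes), with a median of -0.53. Against the 5 lymphoid populations 10 were lower (0.770% of all genes) and none higher, with a median of -1.47. Against T8, 2 were higher and 5 lower (0.537% and 0.425% of all genes), with a median of -0.52. Against Treg, 1 was higher and 3 were lower (0.354% and 0.521%), with a median of 0.21. Tbx21 (T-bet), the factor of type 1 responses, was 8.73 and 8.74 in T4, and its means were 12.24 in NK, 11.74 in NKT, 10.47 in Tgd, 9.71 in T8 and 8.52 in Treg. It was lower, with a difference of -1.80 ± 0.13 (adjusted p = 2.66e-08). Ccl5, a chemokine of memory and cytotoxic cells, was 9.74 and 10.28 in T4, against 7.21 (MF), 12.50 and 13.73 (NK), lower than in the lymphocytes, with a difference of -2.28 ± 0.22 (adjusted p = 9.98e-07). Ifng itself was 7.20 in T4 replicate 2 and 8.59 in replicate 3. Its difference of -2.02 ± 0.41 from the lymphocytes (adjusted p = 0.00336) did not pass without T4 replicate 2 (-1.33).

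NK receptors led the genes lower than in the mean of the other lymphocytes, which holds NK and NKT. All 14 measured NK markers were lower than in the 5 lymphoid populations (0.770% of all genes, median -2.20). Against the 8 others 11 were lower (2.37% of all genes). Ncr1 (NKp46) was 4.95 and 4.88 in T4, against 4.87 (MF), 6.49 and 13.10 (NK), a difference of -3.15 ± 0.17 from the lymphoid mean (adjusted p = 1.26e-09). Klra6 (-3.93 ± 0.16) and Klrc1 (-3.72 ± 0.19) differed more, but both belong to families of near-identical copies, so probes may not separate the members. T4 minus Treg was -0.36 ± 0.22 for Ncr1, and none of the 14 genes passed between them (0.354% of all genes higher and 0.521% lower). Against T8, 3 of the 14 were lower (0.425% of all genes) and 11 did not pass, with a median of -0.18.

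Among the genes lower than in the 8 others, Ccl3, a chemokine that attracts monocytes and T cells, stood first. It was 6.07 and 6.41 in T4, against 6.04 (Treg), 10.57 and 13.39 (NK), a difference of -4.17 ± 0.31 (adjusted p = 1.67e-08). Only Treg (mean 6.19) was as low. Fcer1g and Tyrobp, signalling adaptors of activating receptors in NK and myeloid cells, were lower, with a difference of -3.12 ± 0.12 and -2.76 ± 0.08. Fcer1g was 7.43 and 7.99 in T4, against 7.11 (Treg), 11.72 and 13.11 (GN). Lilr4b, an inhibitory receptor of myeloid cells with a near-identical paralog, was 5.79 and 6.33, below all 16 others (6.34 in T8 at the lowest). So was Plcg2, the phospholipase C of B cell and Fc receptor signalling, with 6.14 and 6.15 against 6.21 (Treg), 9.12 and 10.83 (DC). Zeb2, a transcription factor of terminal effector lymphocytes and myeloid cells, had its lowest mean of the 9 populations in T4 (5.84) and differed by -2.71 ± 0.12.

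T4 was nearest to Treg, and signal of Treg genes was present in it. Foxp3, the defining factor of Treg, averaged 9.97 ± 0.05 in T4 (SD, n = 2 arrays), against 6.66 (MF), 7.18 and 12.18 (Treg). Il2ra (CD25), the alpha chain of the IL-2 receptor, was 11.01 and 10.99, against 5.65 (GN), 7.19 and 12.79 (Treg). Both genes ranked 2nd of 9 populations in T4. Foxp3 was lower than in Treg, with a difference of -2.04 ± 0.13 and higher than in T8 by 2.79 ± 0.13 (adjusted p = 3.52e-08 and 3.57e-10).

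Of 17 Treg markers, 7 were higher than in the 8 others (1.33% of all genes) and none lower, although the 8 include Treg. Against T8, 11 were higher and 1, Itgae, lower (0.537% and 0.425% of all genes). Against Treg, 15 were lower and none higher (0.521% and 0.354%), and Izumo1r (-0.94 ± 0.20) and Icos (-0.48 ± 0.14) did not pass. The summed intensity of the 17 genes was 13887 and 13724 on the T4 arrays, against 37919 and 45583 in Treg and 5873 and 6877 in T8. On a linear scale, the T4 intensity in excess of T8, as a percentage of the Treg intensity in excess of T8, had a median of 20.35% over the 16 markers at least 2-fold higher in Treg than in T8. It ran between 6.87% for Nt5e and 56.55% for Icos, with 21.4% for Foxp3, 30.3% for Il2ra and 44.5% for Izumo1r. In sorted bulk samples, fewer cells of a type and less RNA per cell cannot be told apart, and the share of CD25+ cells in the T4 gate was not measured here.

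Other genes separated T4 from Treg in the opposite direction. Pde3b, a phosphodiesterase of cyclic nucleotides, was 10.61 and 10.23 in T4 and averaged 6.71 in Treg, the lowest of the 9 populations, a difference of 3.71 ± 0.18 (adjusted p = 1.42e-09). Atp8b4, a phospholipid flippase, differed by 3.54 ± 0.15 in the same way. Vipr1, a receptor of vasoactive intestinal peptide, was 10.61 and 10.79 in T4, above all 16 others, and 3.06 ± 0.13 higher than in Treg. A second probe set of Vipr1 gave 0.73 in that contrast and 0.71 against the 8 others, where it did not pass, so the size rests on the brighter probe set. Socs2, which restrains cytokine signalling, was lower than in Treg, with a difference of -2.25 ± 0.21 and higher than in T8 by 2.08 ± 0.21, and its second probe set gave -1.29 and 0.73. Lrrc32 (GARP), which anchors latent TGF-beta on Treg, was the gene most reduced against Treg, by -2.50 ± 0.17.

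Against T8, a coreceptor gene ranked first in each direction, Cd8a among the lower and Cd4 among the higher genes. Plac8 ranked between Cd8a and Cd8b1 among the lower genes, and Klra6, Itgae and Nkg7 followed. Cd8a was lower, with a difference of -5.41 ± 0.15 and Cd8b1 with one of -3.43 ± 0.13, and of 8 T8 markers 7 were lower (0.425% of all genes). Cd8b1 was 8.54 and 8.63 in T4 against 12.08 at the highest in T8, and ranked 3rd of the 9 populations. On the other side were Cd4 (5.48 ± 0.19), St8sia6 (4.15 ± 0.13), Il2ra (4.13 ± 0.13) and Cd40lg (3.97 ± 0.13). St8sia6, a sialyltransferase, averaged 10.65 in T4, 10.47 in Treg and 6.51 in T8, but was as high in DC (10.69) and MF (10.77). Eomes, a T-box factor of memory and cytotoxic cells, was lower than in T8, with a difference of -2.46 ± 0.21, and Runx3, the factor of the CD8 lineage, by -1.02 ± 0.17. Of 18 genes of the T cell receptor apparatus, none passed between T4 and T8, near the shares of all genes (0.537% higher and 0.425% lower).

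Interferon pathway genes gave few calls in T4. Of 19 receptor and signalling genes, none passed against the 8 others in either direction (1.33% and 2.37% of all genes), with a median of 0.03. Ifngr2, the chain that brings Jak2 to the receptor, was 10.69 and 10.52 in T4, against 6.99 (NK), 10.23 and 11.49 (GN). It was 1.70 ± 0.09 higher than in the other lymphocytes (adjusted p = 1.06e-09), the only one of the 19 to pass there (0.557% of all genes). The low values of that mean were those of NK (7.16) and NKT (7.30), while Treg (10.52), T8 (9.94) and Tgd (9.60) lay nearer to T4. Ifngr1, the ligand-binding chain, was 10.68 and 10.67, under the median of the other arrays (11.37), and its difference of -0.69 ± 0.08 (adjusted p = 3.87e-06) stayed inside 2-fold. Irf1, the primary IFNg target, was 11.97 and 12.22 in T4, against 10.91 (NK), 12.09 and 12.96 (GN), a difference of 0.13 ± 0.08 (adjusted p = 0.272).

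Of 12 measured interferon-inducible GTPases, 4 were higher than in the 8 others (1.33% of all genes) and none lower, with a median of 0.37. They were Gbp4 (1.12 ± 0.16), Gbp8 (1.03 ± 0.14), Gbp11 (1.36 ± 0.13) and Iigp1 (1.31 ± 0.14). Gbp11 was 10.75 and 10.59 in T4, against 7.53 (NK), 9.65 and 10.71 (Tgd). Its means in T8 (10.33), Tgd (10.48) and Treg (10.25) were near those of T4, and the low values lay in NK (7.71), GN (7.61) and NKT (8.70). Against the lymphoid populations all 12 differences were positive, between 0.39 and 1.72, and 2 passed, Gbp11 and Iigp1 (0.557% of all genes). The summed intensity of the 12 genes was 32994 and 29586 in T4, against 6551 and 8858 in NK, 14162 and 15960 in NKT and 29616 and 35460 in Treg. GBP genes have near-identical copies, and 8 of the 20 genes on the list had no probe set of their own. Gbp8 fell short of the limit without T4 replicate 2 (0.99).

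None of 15 MHC class I presentation genes passed against the 8 others (1.33% of all genes higher, 2.37% lower) or the lymphoid populations (0.557% and 0.770%). A count of none is near those shares. The differences of the 15 genes from the 8 others ran between -0.17 and 0.34. Of 9 measured class II genes, H2-Aa, H2-Ab1, H2-Eb1 and Cd74 were lower than in the 8 others (2.37% of all genes). H2-Aa was 6.93 and 7.84 in T4, against 6.75 (T8), 8.33 and 13.41 (DC). Without T4 replicate 2 only H2-Ab1 passed (H2-Aa -1.10, H2-Eb1 -0.88, Cd74 -0.98), and none of the 9 passed against the lymphoid populations.

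Type I interferon-stimulated genes gave a call in each direction. Of 33, Slfn1 was higher (1.30 ± 0.20) and Mx1 lower (-1.10 ± 0.18) than in the 8 others, and the median was 0.06. Over all genes, 1.33% were higher and 2.37% lower. Against the lymphocytes Oas2, Oasl2 and Slfn1 were higher and Mx1 lower (0.557% and 0.770% of all genes). Oas2, which makes the activator of RNase L, was 10.66 and 10.26 in T4, and its means were 9.66 in T8, 9.44 in Treg, 9.05 in Tgd, 8.96 in NKT and 6.97 in NK. The Mx1 call against the 8 others was lost without T4 replicate 3 (-0.85), and that against the lymphocytes sat at the 2-fold limit. On the T4 arrays themselves, 30 of the 33 genes were higher on replicate 2, by a median of 0.26. Among the 13 chemokines, 7 were lower than in the 8 others (2.37% of all genes) and none higher (1.33%). Cxcl10, the chemokine that IFNg induces, was 9.11 and 9.72 in T4 and had its lowest mean of the 9 populations there, a difference of -1.53 ± 0.29 (adjusted p = 0.000621). None of the 11 feedback genes of the pathway passed against the 8 others or the lymphocytes, near the shares given above. Socs2 and Cish were lower than in Treg (0.521% of all genes) and higher than in T8 (0.537%).

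**Figure D4:**
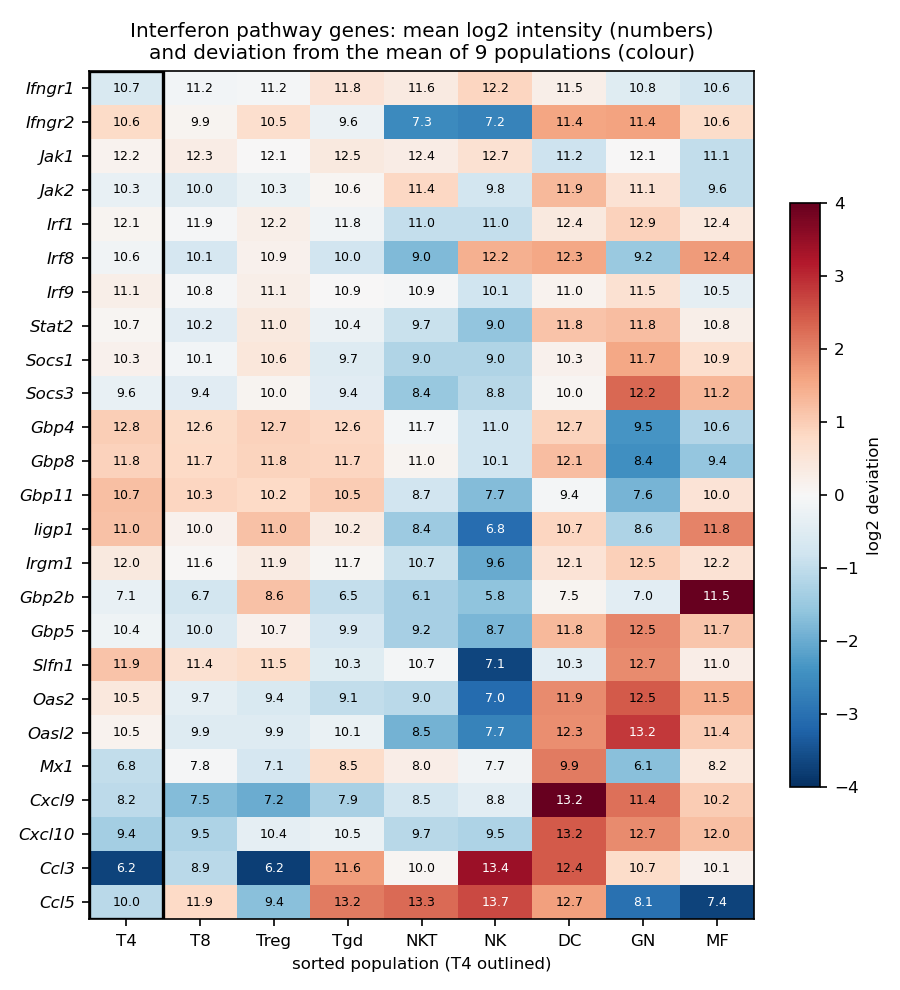
Mean log2 intensity (numbers) of interferon pathway genes in 9 populations, with colour for the deviation from the mean of the 9 and T4 outlined at the left. Ifngr2 is 10.6 in T4 and 7.2 in NK, Iigp1 is 11.0 in T4 and 6.8 in NK, and Ccl3 is 6.2 in T4 and 13.4 in NK.

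**Figure D5:**
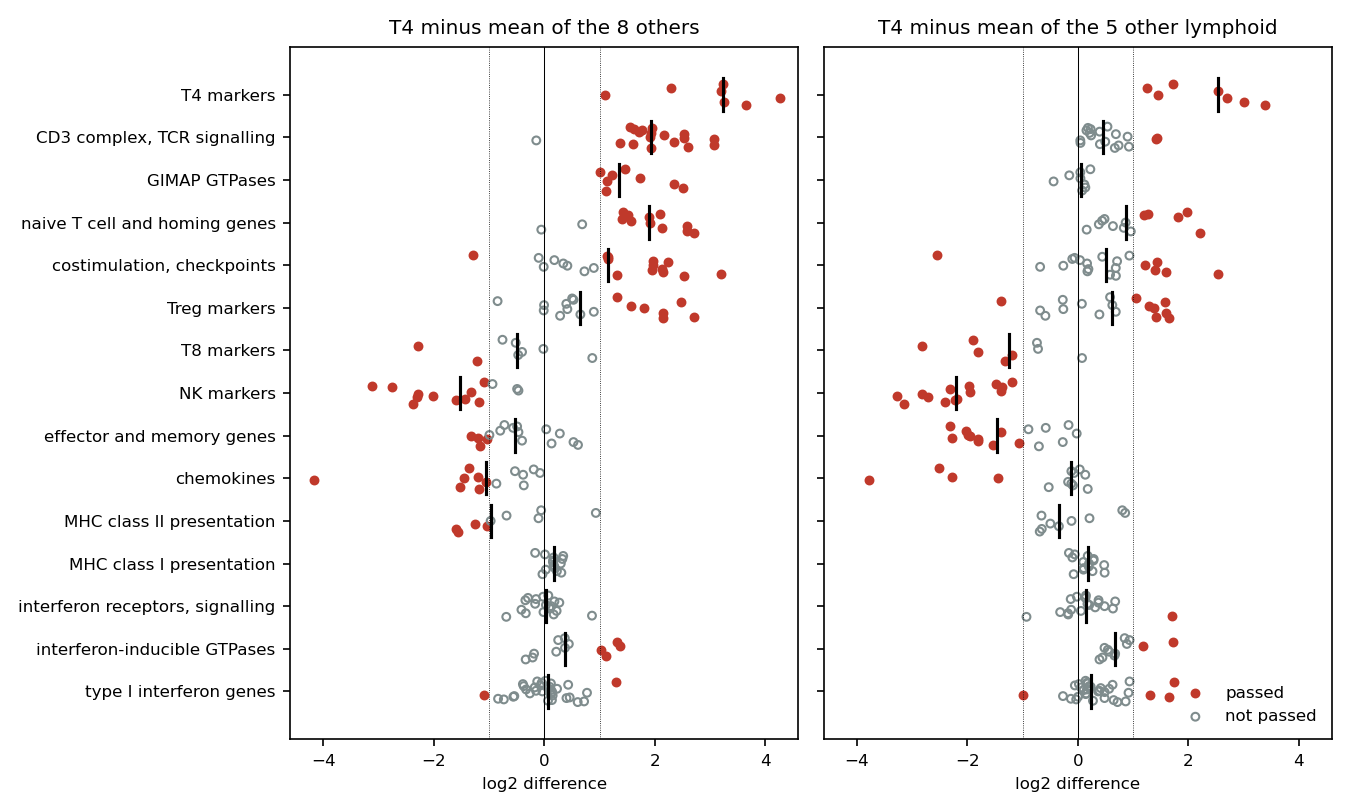
Log2 difference of each measured list member, T4 minus the mean of the 8 others (left) and T4 minus the mean of the 5 other lymphoid populations (right). Filled points passed, black bars are list medians and dotted lines mark 2-fold. The CD3 and GIMAP lists lie to the right of 0 in the left panel (medians 1.93 and 1.34) and close to 0 in the right panel (0.45 and 0.06), while NK markers lie to the left of 0 in both (-1.52 and -2.20).

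Marker lists of other cells that the gate could hold were compared as well. Those of granulocytes, B cells, monocytes and macrophages, and dendritic cells gave no higher call against the other lymphocytes. Of 8 NKT markers, 1 was higher and 3 lower than in the 8 others (1.33% and 2.37% of all genes). Of 6 measured plasmacytoid dendritic cell markers 1 was higher and 1 lower, and of 5 measured Tgd markers none passed. Against the lymphocytes these lists had 4, 1 and 1 lower members (0.770%) and none higher. Of 12 granulocyte markers 11 were lower than in the 8 others (2.37% of all genes) and none passed against the lymphocytes (0.557% and 0.770%). Their summed intensity was 815 and 837 in T4, against 744 to 2334 in the 10 lymphoid arrays and up to 103151 in GN. Of 12 B cell markers none passed against the 8 others (1.33% and 2.37% of all genes). Their sum was 1313 and 1373 in T4, against 1188 to 3392 in the lymphoid arrays. The 13 monocyte and macrophage markers summed to 2515 on T4 replicate 2 and 1880 on replicate 3, against 1388 to 4250 in the lymphoid arrays. The higher sum on replicate 2 rested on Lyz2, the only one of the 13 at least 2-fold higher there. Only 5 of the 13 were higher on replicate 2, and the median of replicate 2 minus replicate 3 was -0.17. For 18 macrophage genes, the T4 intensity in excess of the lymphoid median was set against that of MF. Lyz2, Fn1, Wfdc17, Alox15, Prg4, Lyz1 and Lbp were among the genes at least 2-fold apart between the T4 arrays, all higher on replicate 2. A gap between the arrays was thus given beforehand for these genes. On replicate 2 the share was highest for Lbp, the lipopolysaccharide-binding protein, at 9.97%, and was 5.58% for Lyz2, 3.88% for Prg4 and 3.00% for Fn1 (fibronectin). On replicate 3 it was 1.75% for Lbp, -0.53% for Lyz2, 1.30% for Prg4 and 0.19% for Fn1. Among the remaining genes the share ran between -1.28% for Vcan and 1.02% for C1qb, a chain of complement C1q, on replicate 2. On replicate 3 it ran between -0.51% for Cd14 and 1.51% for C1qb. Csf1r, Cd68, Mertk, Fcgr1, C1qa, C1qb, C1qc and Vcan had the higher share on replicate 3. Adgre1, Cd14 and F13a1 had it on replicate 2. Adgre1 was 6.47 and 6.36 in T4, above its lymphoid median of 5.99 on both arrays, at 0.36% and 0.27% of MF. Csf1r was 6.97 and 7.43 in T4, on either side of its lymphoid median of 7.03, at -0.12% and 1.07% of MF. None of the 20 immediate early genes was higher than in the 8 others (1.33% of all genes), and Fosb, Ier3 and Atf3 were lower (2.37%). Fosb was 7.32 and 8.94 in T4, and its call was lost without T4 replicate 2 (-0.47). Without T4 replicate 3, 8 of the 20 were lower than in the 8 others and 4 than in the lymphocytes, where none passed with both arrays. Without T8 replicate 2, the counts were 5 and 2. The part of these genes and of the macrophage markers in the results above was not tested.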

How the data were processed

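Expression of 9 sorted populations was measured on 18 arrays, 2 per population, grouped by title. The authors deposited linear intensity, 1 value per probe set and array, from Affymetrix Power Tools and RMA per the submitters' processing notes. The sources used here give neither versions nor whether all arrays were normalized together. Median intensity ran between 138.5 and 151.0 per array. RMA compresses differences of dim genes, and the number of arrays limits the precision.

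Of 24922 probe sets, 21425 had 1 symbol in the platform annotation, 1399 had several and 2098 had no listed gene. Symbols were updated by Entrez number against RefSeq, which held 21347. Only probe sets with 1 symbol were used, taking the one with the highest mean for 921 genes with several, which left 19752 genes. Of the unnamed sets, 33 with several symbols and 41 with none were higher in T4 than in the 8 others, and 27 and 42 were lower.

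Log2 values were fitted with limma 3.58.1 in R 4.3.3 (1 mean per population, eBayes with a mean-variance trend, 9 residual and 7.69 prior degrees of freedom, no covariate). Every adjusted p is limma's, two-sided, by Benjamini-Hochberg over all genes. The fit was tested on simulated data.

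The population, the 31 gene lists and the rule for named genes were chosen with earlier results of these data known, and list counts support nothing by themselves. Clone, Rik, Gm, predicted and small RNA names were left out unless on a list. Among the rest, the rule took the 12 largest differences that passed in each direction against the 8 others, 8 against the lymphoid populations, 6 against T8 and Treg, the genes above all 8, and up to 5 members per list, with some lists whole. Members named in counts of 5 or fewer, the genes apart between the T4 arrays and the sequences shown were chosen after their values were seen. Lists were described by counts and medians, with no test of a list. Alternatives were a replicate block, single arrays left out, a filter on dim genes, a pseudocount of 16, 2 further normalizations, no trend, array weights, averaged probe sets, no fold limit, a mean without Treg, and fits on 4 arrays.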

Additional observations from a re-analysis of the deposited data

How the results depend on the processing

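No named difference that passed changed its sign under an alternative, and the counts of genes stayed within 1.5 times except as follows. Without a fold limit, 2917 genes were higher and 2390 lower than in the 8 others, 926 and 819 than in the lymphoid populations, 402 and 284 than in T8, and 278 and 356 than in Treg, while 17 genes were above and 3 below all 8 populations. Without T4 replicate 3, 8 genes were above all 8.

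With single arrays left out, the counts ran between 243 and 303 (higher) and 457 and 494 (lower) against the 8 others, 107 and 143 and 142 and 160 against the lymphoid populations, 94 and 125 and 84 and 94 against T8, and 65 and 82 and 88 and 122 against Treg. Between 4 and 8 genes were above all 8 populations, and 0 below. A lone T4 array was assumed to vary like the other populations. Amigo2 was also lost from the 5 genes without MF replicate 3 and under quantile normalization, and Cyp2s1 without T8 replicate 2.

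Arrays with the same replicate number as T4 deviated with it by correlations between -0.16 (Tgd) and 0.34 (T8), so the numbers were not taken as pairs in the main fit. T4 and T8 shared a gap in immediate early genes. Their summed intensity was 15885 on replicate 2 and 26917 on replicate 3 of T4, and 15137 and 26662 in T8. The reason was not tested. With a replicate block, 255 genes were higher and 497 lower than in the 8 others, and 5 were above all 8. Of the differences named here, Mx1 against the lymphoid populations was lost (-0.98). Against 7 populations without Treg, 324 genes were higher and 582 lower, and 11 instead of 7 monocyte and macrophage markers were lower. Values near the 2-fold limit (Gimap8, Gbp8, Clec9a, Camp, F13a1, Mx1) passed or not by the array left out. Dim genes have the least signal over background, and 2 arrays per population limit every call.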

Other observations

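Further genes that the contrasts above did not name by role were high in T4, with T8 close for Als2cl and Treg close for Itm2a. Without a fold limit, St8sia1 was above all 8 populations, while Als2cl and Itm2a were not. Als2cl, a guanine nucleotide exchange factor homolog, was 10.36 and 10.23 in T4, above all 16 other arrays, of which the highest was 10.07 (T8), and differed by 2.38 ± 0.10 from the lymphoid populations. Its second probe set gave 0.73 there and did not pass against the 8 others (0.76). St8sia1, the sialyltransferase that makes ganglioside GD3, was 10.59 and 10.46 in T4, against 6.17 (NK), 8.03 and 10.13 (DC), and was 1.39 ± 0.16 higher than in Treg. Itm2a, a membrane protein of thymocytes and activated T cells, was 10.28 on both T4 arrays, against 5.91 (MF), 8.33 and 10.17 (Treg).

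Of 19 T lineage transcription factors, 8 were higher and 2 lower than in the 8 others (1.33% and 2.37% of all genes). Only Zbtb7b was higher than in the lymphoid populations (1.45 ± 0.10; 0.557% of all genes), where Eomes, Tbx21 and Zeb2 were lower (0.770%). Of 14 helper subset genes, Gata3, Ccr4 and Ccr8 were higher than in the 8 others and Tbx21 and Il12rb2 lower (1.33% and 2.37% of all genes). Gata3, the factor of type 2 helper cells and of T cell development, was 10.71 and 10.52 in T4, ranked 4th of 9, and did not differ beyond 2-fold from T8 (0.77 ± 0.12) or Treg (-0.46 ± 0.12). Bub1, a checkpoint kinase of dividing cells, was the only one of 14 cell cycle genes to pass against the 8 others (-1.29 ± 0.27), and it missed the limit without T4 replicate 3 (-0.95). None of 7 stromal and none of 6 red blood cell and platelet genes passed against the 8 others (1.33% of all genes higher and 2.37% lower).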
